A study of Mus musculus with 5 samples.

Results

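Cbx2, Cbx6, Cbx7 and Cbx8 encode chromobox subunits of canonical Polycomb Repressive Complex 1 (PRC1), and they were examined here as targets of PRC1 itself. The 4 genes were taken by name from the 37252 genes that GENCODE vM1 places on the autosomes and the X chromosome of the mouse genome (NCBIM37, mm9). RING1B, the catalytic subunit of PRC1, was mapped in MEFs (fibroblasts cultured from mouse embryos) with ChIP-Seq, in which DNA bound by a protein is recovered with an antibody and sequenced, and a list of peak positions was analysed for each of 3 libraries. The control library came from the parental MEFs, which carry EED alleles flanked by loxP sites and no deletion of EED. The EZHIP library came from these cells after lentiviral transduction with human EZHIP, and the H3.3 K27M library after transduction with histone H3.3 in which lysine 27 is methionine. Per the methods of the study, both transgenes were driven by the EF1a promoter and the transduced cells were selected with puromycin. The labels name no empty-vector control. Libraries of H3.3 K27R cells and of an EED deletion line belong to the same series and were not analysed here.

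Each group was 1 library, so no difference below has a replicate check or a test, and each is a difference between these peak lists. The lists hold neither scores nor read counts, and the depth behind them is unknown. A gene without a peak is therefore a gene at which none was called, which differs from a gene shown to be free of RING1B. Peak lists carry no expression values, so the labelled cell type could not be checked from them.

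PRC2 methylates histone H3 at lysine 27, and the chromodomain of the CBX proteins binds the trimethylated form, H3K27me3. Canonical PRC1 complexes carry 1 CBX protein beside RING1A or RING1B, a PCGF protein and a Polyhomeotic protein, and they ubiquitinate histone H2A and compact chromatin. CBX proteins can replace each other in the complex, so the regulation of their own genes bears on which form of PRC1 a cell assembles. EZHIP and H3.3 K27M both inhibit PRC2, and the comparison asks where RING1B was still called at the CBX genes in their presence.

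The members lie in pairs. Cbx2, on the plus strand of chromosome 11 (118884276 to 118892584), and Cbx8, on the minus strand (118897619 to 118902283), face each other tail to tail with 5034 bases between their ends and 18007 bases between their starts. Cbx6 (79654326 to 79665118) and Cbx7 (79746237 to 79801549) lie on the minus strand of chromosome 15, with 136 kb between their starts. The gene start of Cbx7 belongs to the transcripts Cbx7-005 and Cbx7-006, whereas Cbx7-001 begins 38467 bases further into the gene.

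RING1B in mammals is found mainly at CpG-rich promoters, so the sequences upstream of the 4 genes are shown with every CG dinucleotide in capitals. Each run gives the 250 bases before the start, read 5′ to 3′ on the strand of the gene (NCBIM37). They are chr11:118884026-118884275 on the plus strand for Cbx2, chr11:118902284-118902533 on the minus strand for Cbx8, chr15:79665119-79665368 on the minus strand for Cbx6 and chr15:79763083-79763332 on the minus strand for the Cbx7-001 transcript of Cbx7.
Cbx2: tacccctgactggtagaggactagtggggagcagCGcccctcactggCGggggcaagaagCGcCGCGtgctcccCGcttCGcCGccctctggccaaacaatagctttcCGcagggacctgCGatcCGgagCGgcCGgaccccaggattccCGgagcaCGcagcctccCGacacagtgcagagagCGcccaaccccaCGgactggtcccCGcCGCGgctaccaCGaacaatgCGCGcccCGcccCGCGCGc
Cbx8: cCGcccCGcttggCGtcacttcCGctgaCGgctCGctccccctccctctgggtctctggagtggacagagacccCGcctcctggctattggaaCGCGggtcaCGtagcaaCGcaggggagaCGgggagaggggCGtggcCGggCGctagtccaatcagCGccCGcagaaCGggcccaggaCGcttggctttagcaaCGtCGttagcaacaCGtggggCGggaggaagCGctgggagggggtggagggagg
Cbx6: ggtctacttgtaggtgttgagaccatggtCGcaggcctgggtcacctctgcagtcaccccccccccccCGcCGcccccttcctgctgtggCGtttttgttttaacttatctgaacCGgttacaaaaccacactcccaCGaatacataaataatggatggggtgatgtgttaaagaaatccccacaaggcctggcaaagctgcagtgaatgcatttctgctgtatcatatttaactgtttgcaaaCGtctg
Cbx7: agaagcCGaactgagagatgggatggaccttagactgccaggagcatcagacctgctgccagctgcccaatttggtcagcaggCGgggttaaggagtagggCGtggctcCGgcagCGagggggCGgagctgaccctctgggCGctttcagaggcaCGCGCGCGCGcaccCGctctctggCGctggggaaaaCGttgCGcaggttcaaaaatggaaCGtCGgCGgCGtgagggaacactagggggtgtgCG
The Cbx2 run holds 28 CG, the Cbx8 run 24, the Cbx7 run 21 and the Cbx6 run 7. Cbx2 and Cbx8 had control RING1B peaks over these bases, and Cbx7 and Cbx6 had none in any list.

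Of the 4 members, 2 had a RING1B peak in the control list, the same pair had one in the EZHIP list, and no member had one in the H3.3 K27M list. A gene was counted when a peak shared at least 1 base with its body or with the 5000 bases on either side of its start. By this rule 1176 of all 37252 genes (3.16%) had a control peak, 419 (1.12%) an EZHIP peak and 405 (1.09%) an H3.3 K27M peak. The members with peaks were Cbx2 and Cbx8, and those without were Cbx6 and Cbx7. Among the 1176 genes with a control peak, 349 (29.7%) also had an EZHIP peak and 364 (31%) an H3.3 K27M peak. An EZHIP peak without an H3.3 K27M peak, as at Cbx2 and Cbx8, was found for 99 of these genes (8.42%), and 713 (60.6%) had neither. Among protein-coding genes, to which the 4 members belong, the shares with a peak were 3.81%, 1.32% and 1.21%.

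The distance allowed between peak and start decided whether Cbx8 was counted outside the control list. The starts of Cbx2 and Cbx8 lay inside a control peak, as did 2.27% of all gene starts. In the EZHIP list the start of Cbx2 alone did so, against 0.518% of all starts, and in the H3.3 K27M list no member start did, against 0.65%. With the window widened to 10000 bases, Cbx2 and Cbx8 were counted in the control list (3.46% of all genes) and the EZHIP list (1.25%), and Cbx8 also in the H3.3 K27M list (1.19%).

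**Figure D1:**
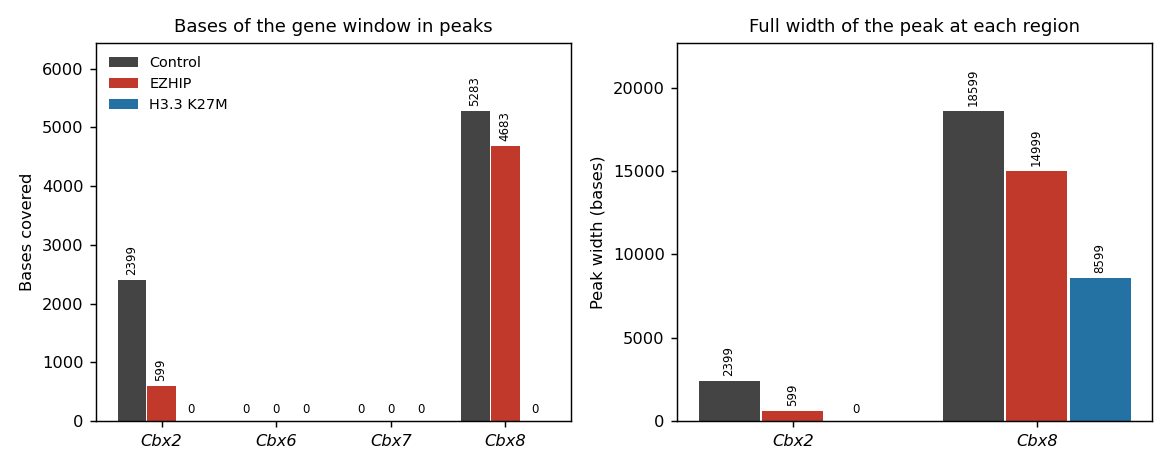
Left, bases of each gene window (gene body and 5000 bases on either side of the start) that lie in RING1B peaks. Right, full width of the peak at each region, whatever part of it lies in the window. Bars show 1 library each, without error bars, and 0 marks a list with no peak there. The H3.3 K27M peak of 8599 bases upstream of Cbx8 appears on the right only, because it begins beyond the window.

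At Cbx2, which encodes a CBX protein that compacts nucleosomes, the control list held a peak of 2399 bases (chr11:118883001-118885399). It ran from 1275 bases before the gene start to 1123 bases after it, with 624 bases in exons, 500 in introns and 1275 outside genes. The exon bases are divided between the 2 annotated transcripts, Cbx2-001 from the gene start and Cbx2-002, which begins 763 bases further in. The EZHIP list held a peak of 599 bases, or 3 bins of the caller, at chr11:118884201-118884799. It began 75 bases before the start and ended 523 bases after it. The H3.3 K27M list had no peak here, and its closest was 25.1 kb from the Cbx2 start. The EZHIP peak lay wholly inside the control peak and covered 25% of it.

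The Cbx2 peak was narrow in both lists that held it. It ranked 516 of 821 by width in the control list and 231 of 311 in the EZHIP list. Of the 454 other control peaks from 0.5 to 2 times its width, 53 (11.7%, 95% Wilson interval 9.04 to 15.0%) met an EZHIP peak and 33 (7.27%, 5.22 to 10.0%) met an H3.3 K27M peak. Among these 454, 26 kept a larger part than Cbx2 in the EZHIP list. The narrowest control peak spanned 1199 bases, so a stretch as narrow as the EZHIP peak at Cbx2 does not occur in the control list, whereas 109 EZHIP peaks and 59 H3.3 K27M peaks were under 1000 bases, although the methods of the study give that width as the smallest for a peak. With a common minimum of 1000 bases, Cbx2 had a peak in the control list alone, Cbx8 kept its EZHIP peak, and the shares of all genes with an EZHIP or H3.3 K27M peak were 0.811% and 0.923%.

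The EZHIP peak at Cbx2 coincided with the CG-rich core of the locus. Its 599 bases had 75.3% G and C and 139 CG per kb, against 59.4% and 68.4 CG per kb over the whole control peak, and all of it lay in a CpG-island-like stretch of 1300 bases. The median was 24.8 CG per kb over all EZHIP peaks, with quartiles of 12.5 and 40.7. This is a description of 1 peak in 1 library.

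At Cbx8, whose product is a further chromodomain subunit of canonical PRC1, RING1B was called mainly upstream of the gene. The control peak spanned 18599 bases (chr11:118902001-118920599) and ranked 70 of 821 by width. It reached 282 bases into the gene and 18316 bases upstream of its start, with 98.5% of its bases outside annotated genes. The EZHIP peak spanned 14999 bases (chr11:118902601-118917599) and ranked 34 of 311. It began 318 bases upstream of the Cbx8 start, and so lay beside the start without covering it. The H3.3 K27M peak spanned 8599 bases (chr11:118909401-118917999), ranked 97 of 286 and began 7118 bases upstream, which is 2118 bases past the limit of the window.

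The edges of the 3 peaks differed on both sides. Towards the start, the EZHIP peak ended 600 bases and the H3.3 K27M peak 7400 bases short of the control edge. At the upstream end, they ended 3000 and 2600 bases short, 400 bases apart. The H3.3 K27M peak shared 8199 of its bases with the EZHIP peak, and both lay wholly inside the control peak. Lying inside was the usual case, since 211 of the 228 EZHIP peaks that met a control peak (92.5%) and 212 of the 229 such H3.3 K27M peaks (92.6%) did so.

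**Figure D2:**
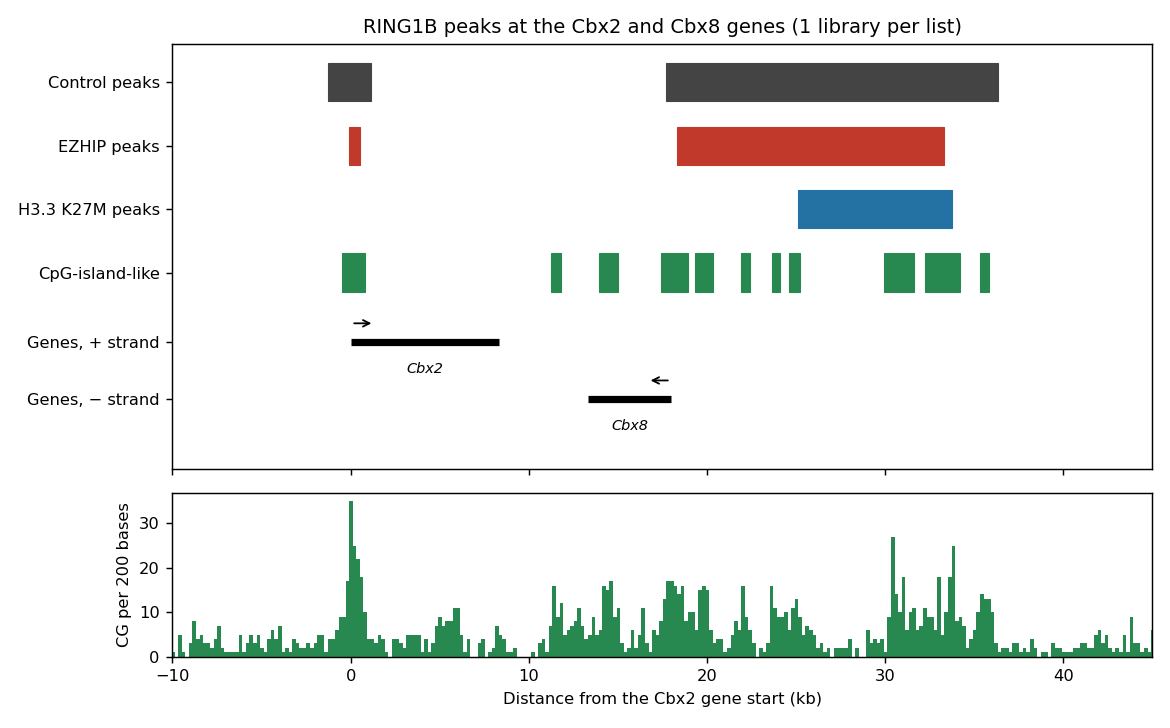
Map of the Cbx2 and Cbx8 genes, with the distance from the Cbx2 gene start in kb on the x axis. Boxes show RING1B peaks of the 3 lists and CpG-island-like stretches, black bars show genes with an arrow along transcription, and the lower panel counts CG dinucleotides per 200 bases. The control and EZHIP lists have 2 peaks each and the H3.3 K27M list 1, and the bases that all 3 lists cover lie upstream of Cbx8.

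The EZHIP list kept 80.6% of the bases of the control peak upstream of Cbx8, and the H3.3 K27M list 46.2%. Only 20 of the other 820 control peaks kept a larger part in the EZHIP list, whereas 147 kept a larger part in the H3.3 K27M list. Of the 165 other control peaks from 0.5 to 2 times as wide, 114 (69.1%, 95% Wilson interval 61.7 to 75.6%) met an EZHIP peak and 128 (77.6%, 70.6 to 83.3%) an H3.3 K27M peak. The median part kept by these 165 was 15.0% for EZHIP, with quartiles of 0 and 54.2%, and 56.8% for H3.3 K27M, with quartiles of 7.93 and 75.9%. The EZHIP value at Cbx8 was thus above the upper quartile and the H3.3 K27M value lay between the quartiles. Of the 152 control peaks that met a peak of EZHIP and also of H3.3 K27M, 32 had more bases covered in the EZHIP list, as here, 112 had more in the H3.3 K27M list and 8 had equal numbers.

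The stretch that all 3 lists covered, chr11:118909401-118917599, was not the richest in CG. It held 30.9 CG per kb over 8199 bases, against 40.6 over the 6800 bases that only the control and EZHIP lists covered and 83.3 over the 600 bases at the Cbx8 start that only the control list covered. CpG-island-like sequence made up 35.4%, 45.6% and 100% of these stretches. CG was spread unevenly within the shared stretch, where 19 of 40 bins of 200 bases held at most 4 CG. The bin with the most, 27, lay 12.3 kb upstream of the Cbx8 start at chr11:118914601-118914800 and is shown on the plus strand, with CG in capitals, as the most CG-rich part of the region called in every list.
Shared bin: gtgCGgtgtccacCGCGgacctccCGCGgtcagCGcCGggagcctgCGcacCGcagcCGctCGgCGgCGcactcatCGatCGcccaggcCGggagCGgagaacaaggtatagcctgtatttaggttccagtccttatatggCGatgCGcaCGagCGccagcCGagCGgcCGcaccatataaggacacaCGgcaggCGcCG
For comparison, the median peak held 41.9 CG per kb for the control, 24.8 for EZHIP and 32.7 for H3.3 K27M.

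Over Cbx2 and Cbx8 together, the covered bases came to 20998 for the control, to 15598 for EZHIP (0.743 times the control) and to 8599 for H3.3 K27M (0.41 times). Repeated sequence was rare here. From 0 to 1% of the 32-base words sampled along these 5 peaks occurred more than once in the genome.

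**Figure D3:**
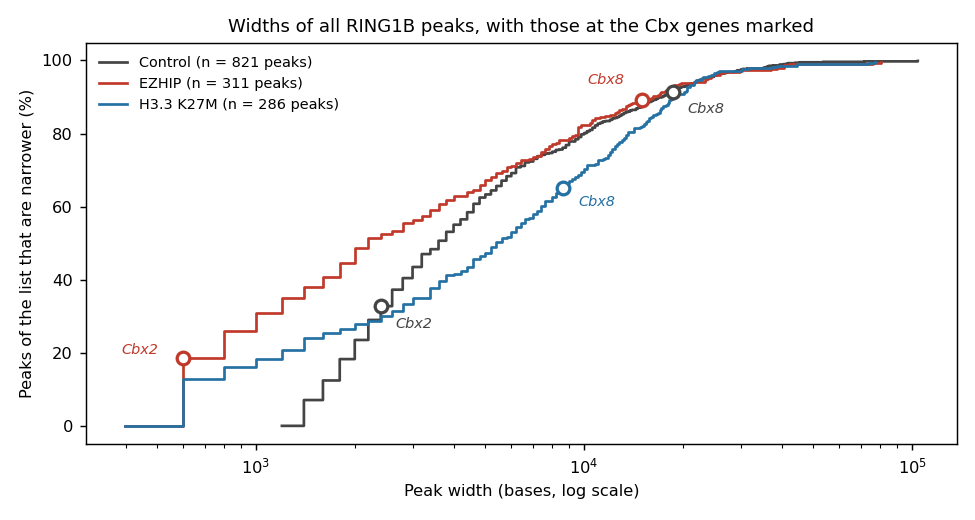
Percentage of the peaks of each list that are narrower than a given width (log scale), for 821 control, 311 EZHIP and 286 H3.3 K27M peaks. Open circles mark the peaks at Cbx2 and upstream of Cbx8. The Cbx8 peak stands high in the control and EZHIP lists and lower in the H3.3 K27M list, and the Cbx2 peak stands low in both lists that hold it.

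Cbx6 and Cbx7, the members on chromosome 15, had no RING1B peak in any list. The peak closest to Cbx7, a subunit known for repression of the Ink4a/Arf locus, was a control peak of 5799 bases, 39.1 kb upstream of the gene start (chr15:79840601-79846399). It holds the start of Pdgfb, which encodes the B chain of platelet-derived growth factor. The same peak was the closest to Cbx6, at 175 kb. The closest EZHIP peak was 3729 kb from the Cbx6 start and 3866 kb from the Cbx7 start, and the closest H3.3 K27M peak was 4088 and 4224 kb away.

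**Figure D4:**
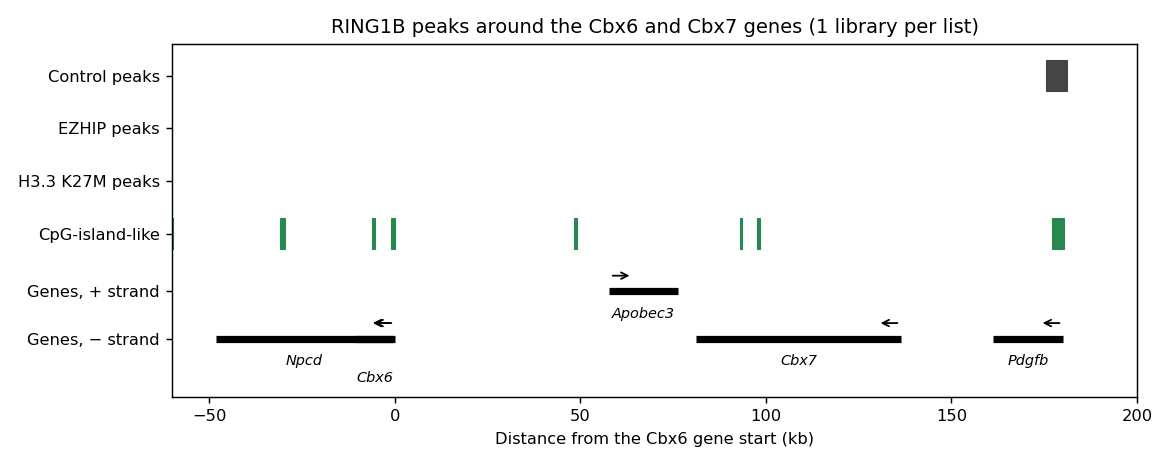
Map around Cbx6 and Cbx7, with the distance from the Cbx6 gene start in kb on the x axis. Symbols are as in the map of the Cbx2 locus, and only the genes named are drawn. The range holds 1 control peak, at the Pdgfb start, and no EZHIP or H3.3 K27M peak, while CpG-island-like stretches lie at Cbx6 and within Cbx7.

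The members with and without peaks were not separated by the CG content of every start. In the window from 250 bases before to 50 bases after the gene start, Cbx2 held 37 CG and Cbx8 28, more than 95.3% and 88.5% of all genes. Cbx6 held 9 and Cbx7 held 8, more than 59.1% and 56.3% of all genes. The median was 6 for all genes and 11 for protein-coding genes. The start of Cbx7-001, however, held 33 CG, more than 93.0% of all gene starts, and had no peak either. CpG-island-like sequence was present in the windows of all 4 members, over 1300 bases at Cbx2, 4100 at Cbx8, 2000 at Cbx6 and 1500 at Cbx7. These windows differ in size, at 13309, 10001, 15793 and 60313 bases in the same order. At Cbx7 the nearest such stretch lay 38049 bases from the gene start. Among the 4302 genes with at least as many CG as Cbx8, 329 (7.65%) had a control peak by the main rule, against 3.16% of all genes. The median for genes with a control peak was 18 CG. Genes with CG-rich starts thus had a control peak more often than all genes, although most of them had none called.

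Short motifs were also counted in these 300-base windows on both strands, as a description of the letters only. The letters GAGAG occurred at all 4 gene starts and in 59.9% of all promoters. GGGCGG, the core of the GC box, occurred at Cbx2, Cbx6 and Cbx8 but not at the gene start of Cbx7, and in 30.5% of all promoters. CACGTG, an E-box, occurred at Cbx8 alone among the 4 and in 6.21% of all promoters. The E-box lies within the run printed for Cbx8.

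The genes of other Polycomb subunits were examined by the same rule. The lists held 41 genes, of which 4 had a control peak and none had an EZHIP or an H3.3 K27M peak. The shares of all genes were 3.16%, 1.12% and 1.09%. The 3 chromobox genes Cbx1, Cbx3 and Cbx5, which encode the heterochromatin proteins HP1, had none. Of 9 canonical PRC1 genes, only Bmi1, which encodes PCGF4, had one. That peak of 8599 bases on chromosome 2 also held the start of Commd3, while Ring1 and Rnf2, the gene of RING1B itself, had none.

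Of 18 variant PRC1 genes, Pcgf1, Bcor and Auts2 had control peaks. The peak at Pcgf1, a subunit of the PRC1 form that contains BCOR and KDM2B, spanned 11999 bases and held its start, that of Gm20423 and that of Tlx2, a homeobox gene. Within it, the EZHIP list had a peak of 1799 bases, 6781 bases from the Pcgf1 start, and the H3.3 K27M list had a peak of 2399 bases, 6981 bases from it. The H3.3 K27M peak upstream of Cbx8 lay at a similar distance, 7118 bases, whereas the EZHIP peak there began 318 bases from the start. The 3 control peaks in Bcor lay from 24482 to 79882 bases from its start, and that in Auts2 lay 1004815 bases from its start. None of the 11 PRC2 genes, among them Ezh2, Eed and Suz12, had a peak in any list.

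**Figure D5:**
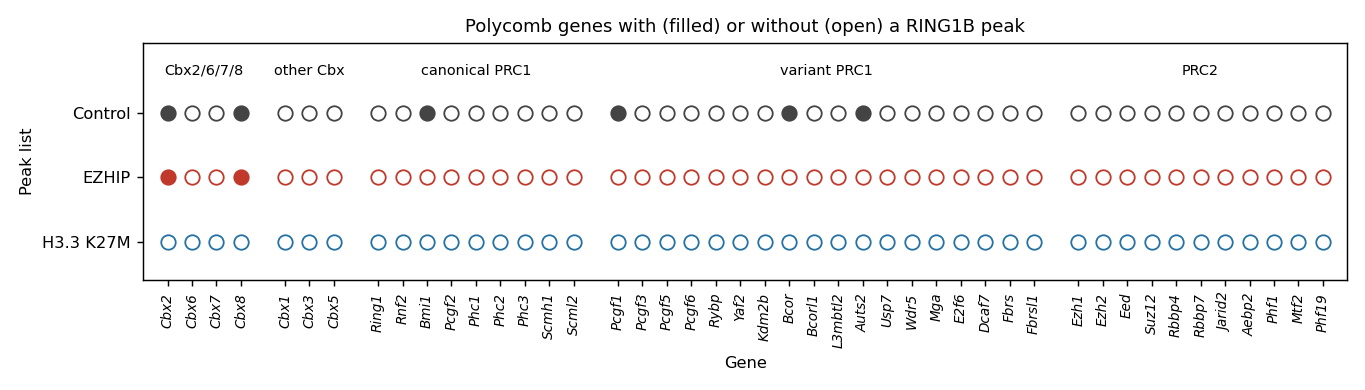
Presence (filled) or absence (open) of a RING1B peak at the 4 members and 41 other Polycomb and chromobox genes (x axis) in each list (y axis), by gene body or 5000 bases on either side of the start. In the control list 6 of these 45 genes are filled, in the EZHIP list 2, Cbx2 and Cbx8, and in the H3.3 K27M list 0.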

How the data were processed

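RING1B ChIP-Seq of MEFs was analysed from 1 deposited peak list per library, for 3 of the 5 samples of the series. The cell type label of a sample set its group. According to the study's methods, the authors digested crosslinked chromatin with micrococcal nuclease, mapped reads to mm9 with bowtie1 (Bowtie 1.0.0 in the submitters' processing notes), and called broad peaks with MOSAiCS-HMM. The deposited values are start and end positions, without score, signal or count. All 1418 starts were multiples of 200 bases, and every peak ended within its NCBIM37 chromosome. Width was taken as end minus start, and printed positions are 1-based.

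Genes were those of GENCODE vM1, with gene-level 5′ ends as starts. Overlaps and sequence features were computed in Python 3.11.15, numpy 2.4.6, scipy 1.17.1, pysam 0.24.0 and matplotlib 3.10.9. CpG-island-like sequence was windows of 500 bases, moved by 100, merged where G and C made up 55% or more and CpG occurred at 0.65 or more of the number that base composition gives. Repeated sequence was the share of 32-base words, taken every 50 bases, that occur again on the assembled chromosomes. The shares of control peaks of similar width that met another peak carry 95% Wilson intervals, which cover counting error only. Other shares carry none. Named genes were the 4 members, listed Polycomb genes with a peak, and genes whose start lay in a peak at a member. Pdgfb, Commd3, Gm20423, Tlx2 and the listed genes without a peak were named after their values were seen. 1 further Polycomb gene is not reported here and is in none of the list counts. Ckb, a creatine kinase gene first listed with variant PRC1 in error, was taken out after its values were seen and had no peak in any list. The members and gene lists were chosen with earlier results of these data known. Alternatives concerned the window, the minimum width, the shared bases and the joining of peaks.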

Additional observations from a re-analysis of the deposited data

How the results depend on the processing

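The 37 values compared across settings were recomputed 161 times, and 145 stayed within 1.5 times of the reported value. Many of these were values of 0 that stayed 0, to which a limit in fold does not apply. The tally is therefore no measure of stability. The number of members with a control peak fell to 1 (Cbx8) among peaks of at least 5000 bases. The number with an EZHIP peak fell to 1 under 5 settings. Cbx2 alone remained when the start itself or the gene body had to meet a peak. Cbx8 alone remained among peaks of at least 1000 bases, among peaks of at least 5000 bases, and when 1000 bases had to be shared. For the minimum of 5000 bases, the gene body alone and 1000 shared bases, no share of all genes was computed. Whether the members changed more than all genes there is therefore unknown. With the minimum of 1000 bases, the covered bases, the peak width and the part of the control peak kept at Cbx2 in the EZHIP list all became 0. With 10000 bases on either side of the start, 1 member (Cbx8) had an H3.3 K27M peak, and peaks then covered 10283 bases of the Cbx8 window in the control, 9683 in the EZHIP and 2883 in the H3.3 K27M list. In the same window 1 variant PRC1 gene, Pcgf1, had an EZHIP peak and 1 an H3.3 K27M peak. When the start had to lie in a peak, 1 variant PRC1 gene kept a control peak. These changes follow from the construction of each setting. Joining peaks within 10000 bases changed no value at Cbx2 or Cbx8. The gap between their peaks was 16601 bases in the control and 17801 in the EZHIP list, so these could not join. Cbx6 and Cbx7 had no peak in any list under the 7 settings for the count of members. With 1 library per group, no replicate could be left out.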
